A study of Mus musculus with 14 samples.

Results

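The IFIT genes (interferon-induced proteins with tetratricopeptide repeats) were followed in microglia, the macrophages that live in the brain. The members were the mouse genes Ifit1, Ifit2, Ifit3 and Ifit3b, 4 of the 19938 genes that had an array row annotated to exactly 1 symbol. Each member had a single such row, so no choice between rows was needed. The mice were C57BL/6J males of 12 to 14 weeks. Their microglia had been sorted from the cortex on the operated side, and total RNA from each sample was hybridised to 1 Affymetrix Mouse Gene 1.0 ST array. The 14 arrays formed 4 groups: 3 of TLR4-/- mice after ischaemia and reperfusion (I/R, lettered B, C, D), 3 of sham-operated TLR4-/- mice (A, B, D), 4 of wild-type mice after I/R (A to D) and 4 of sham-operated wild-type mice (A to D). I/R was an occlusion of the middle cerebral artery for 15 min with 72 h of reperfusion. TLR4 is Toll-like receptor 4, which senses bacterial lipopolysaccharide. The sources used here do not say how the TLR4-/- allele was made, which markers gated the sort or whether a sample was 1 animal or a pool. The p-values therefore measure spread among samples that may be technical replicates. Sample titles write IPC, unexplained, for the I/R groups, which were assigned by the treatment label.

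IFIT proteins are among the most strongly induced products of type I interferon signalling. Signals from the interferon receptor lead to the binding of interferon-stimulated response elements in the promoters of target genes, by a complex that holds STAT2 and IRF9. IRF3 can also switch on IFIT genes directly, downstream of RNA sensors or of Toll-like receptors that signal through TRIF, TLR4 among them. The proteins carry no enzyme activity and consist of tetratricopeptide repeats. Ifit1 grips the end of capped RNA that lacks ribose methylation next to the cap and keeps it from the translation machinery. IFIT proteins also bind subunits of the initiation factor eIF3. Ifit2 limits the spread of neurotropic viruses in the mouse brain, and human IFIT3 binds IFIT1 and strengthens its hold on RNA. Ifit3b is a close paralogue of Ifit3 in the mouse.

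The genes lie in a cluster on mouse chromosome 19, on the plus strand of assembly GRCm38.p6 in the RefSeq annotation. Other genes of the family lie among them: Ifit1bl2 between Ifit3b and Ifit1, and Ifit1bl1, which begins between Ifit3 and Ifit3b. Ifit2 runs over chr19:34550550-34576534, Ifit3 over chr19:34583119-34588982, Ifit3b over chr19:34607530-34613403 and Ifit1 over chr19:34640889-34650009, a span of 99.5 kb from first to last base. Because the 4 genes moved together after I/R, their promoter windows were searched, as RefSeq gives them for that assembly. A window runs from 250 bases before to 50 bases after an annotated start. The windows of Ifit1, Ifit3 and Ifit3b are shown. The start used is the first base of the span above for Ifit1, but lies 410 bases inside it for Ifit3 and 427 bases inside it for Ifit3b. For the 2 windows of Ifit2, described below, it lies 144 and 538 bases inside the span. Capitals mark matches to the core of the interferon-stimulated response element, which is GAAA, any 2 bases and GAAA again, searched on both strands.
Ifit1, chr19:34640639-34640938, plus strand: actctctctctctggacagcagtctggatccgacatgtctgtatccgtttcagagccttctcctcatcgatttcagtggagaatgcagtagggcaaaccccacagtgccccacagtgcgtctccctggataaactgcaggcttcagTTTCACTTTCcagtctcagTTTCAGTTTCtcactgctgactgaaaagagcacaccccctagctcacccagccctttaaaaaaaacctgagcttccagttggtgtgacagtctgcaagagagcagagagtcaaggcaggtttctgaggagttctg
Ifit3, chr19:34583279-34583578, plus strand: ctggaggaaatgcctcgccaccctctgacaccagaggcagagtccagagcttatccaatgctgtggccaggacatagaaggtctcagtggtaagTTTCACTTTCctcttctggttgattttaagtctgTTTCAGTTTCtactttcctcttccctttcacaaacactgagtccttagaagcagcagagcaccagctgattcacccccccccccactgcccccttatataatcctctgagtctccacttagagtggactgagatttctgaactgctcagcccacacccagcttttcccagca
Ifit3b, chr19:34607707-34608006, plus strand: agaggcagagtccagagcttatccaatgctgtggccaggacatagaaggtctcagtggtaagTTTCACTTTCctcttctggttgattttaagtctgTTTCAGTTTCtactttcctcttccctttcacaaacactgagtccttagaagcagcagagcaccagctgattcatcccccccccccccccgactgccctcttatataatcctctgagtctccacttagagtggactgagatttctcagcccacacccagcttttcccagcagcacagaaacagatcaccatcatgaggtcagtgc

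Each of these 3 windows held 2 copies of the core. The first copy read TTTCACTTTC and the second TTTCAGTTTC in all 3 genes, which is the core on the minus strand. In Ifit1 the copies began 104 and 85 bases before the annotated start, in Ifit3 156 and 122 bases before it, and in Ifit3b 188 and 154 bases before it. A longer form, the core followed by CT, which overlaps the core, was found 2 times in the Ifit1 window and 1 time each in the Ifit3 and Ifit3b windows. The core was present in 3.44% of all 32851 promoter windows of this length, and the longer form in 0.271%. Counted per gene, with any window of the gene, 3.99% of 27025 genes held the core and 0.303% the longer form. In the same count, among the 36 other interferon-stimulated genes that had a window, 16 held the core and 9 the longer form. The windows of Ifit3 and Ifit3b are nearly the same sequence: over 274 aligned columns they shared 259 bases, with 1 mismatch and 14 gap bases. Ifit2 has 2 windows in RefSeq, and neither held either form. One of them held the gamma-activated site TTCNNNGAA, which 8.30% of all windows hold on either strand. The exact letters TATAAA, searched on the gene strand, were in none of the members' windows, against 8.32% of all windows. Looser forms of the TATA box were not searched. A match is a description of the letters, and no match says only that these letters are not in this window.

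**Figure D1:**
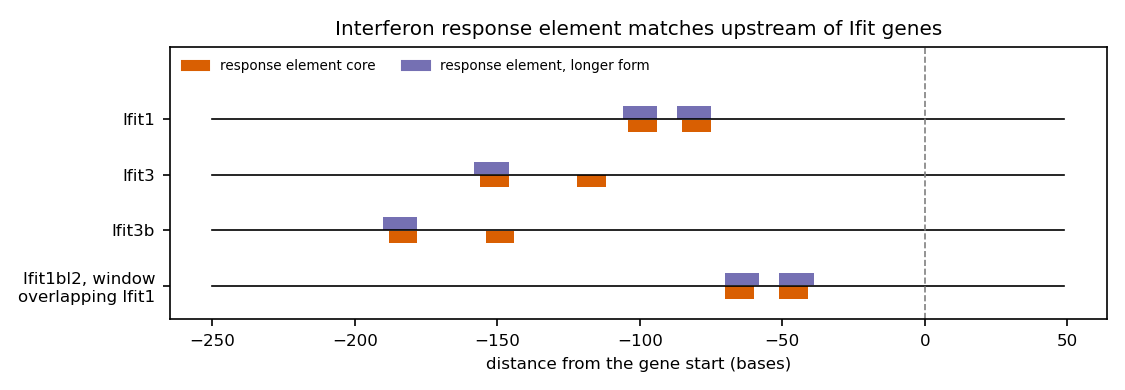
Matches to the interferon-stimulated response element in promoter windows of Ifit1, Ifit3, Ifit3b and in the Ifit1bl2 window that overlaps that of Ifit1. The x axis is the distance from the annotated start in bases, orange boxes are the core and purple boxes the longer form. Ifit2, with 0 matches in its 2 windows, is left out, and the 2 boxes of Ifit1bl2 are the same bases as those of Ifit1, read from the other strand.

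Values are RMA signals on a log2 scale, so a difference of 1 is a 2-fold change. RMA gives no detection call, and the 95th percentile of 1015 olfactory receptor genes, 4.74, served as a stand-in for background. All 14 microglia markers measured, among them Tmem119, P2ry12 and Sall1, lay above it on average. Tlr4 had signal in both genotypes, with means of 8.02 in TLR4-/- I/R, 8.32 in TLR4-/- sham, 8.30 in wild-type I/R and 8.78 in wild-type sham arrays, so its row does not check the genotype label. Arrays of the same group correlated at r between 0.981 and 0.993 across genes. On average 7 of the 14 arrays, the 3 of TLR4-/- I/R and the 4 of wild-type sham, correlated more closely with the other genotype after the same surgery than with their own group. For 2 of them every such value was above every value within the own group. Wild-type sham array C had r of 0.987 to 0.992 with the TLR4-/- sham arrays, above its values of 0.981 to 0.986 within its own group. TLR4-/- I/R array D had r of 0.9901 to 0.9915 with the wild-type I/R arrays, above its 0.9851 to 0.9898 within its own group. Changes after I/R and differences of changes without arrays C and D just named are given beside the results. For the genotype differences the extremes over all alternatives run are given instead.

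All 4 IFIT genes rose after I/R in TLR4-/- microglia, by 13.6 to 18.1-fold, and in wild-type microglia, by 4.49 to 7.33-fold. In both genotypes every I/R array lay above every sham array for every member. The order of the group means was the same for the 4 genes: highest in TLR4-/- I/R, then wild-type I/R, then wild-type sham, and lowest in TLR4-/- sham. In RNA from a sorted population, fewer cells of a type and less RNA per cell cannot be told apart.

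**Figure D2:**
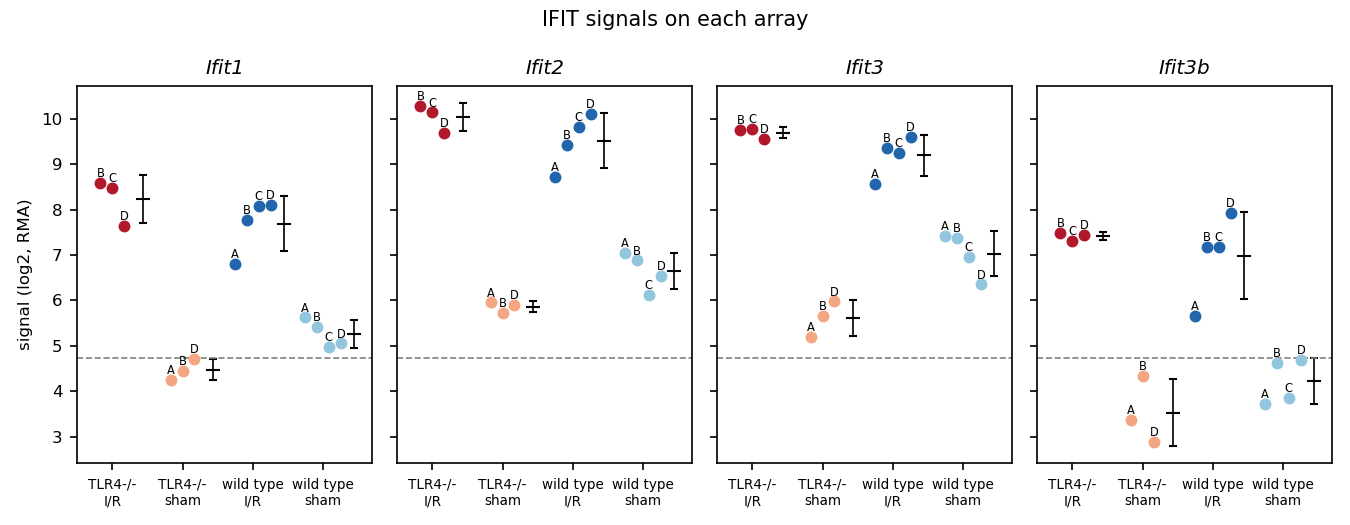
Log2 RMA signal of Ifit1, Ifit2, Ifit3 and Ifit3b on each of the 14 arrays, by group, with the array letter at each point and the group mean ± SD at its right. The dashed line is the background stand-in of 4.74. The I/R arrays of each genotype sit above its sham arrays in every panel, and the TLR4-/- sham arrays of Ifit1, Ifit2 and Ifit3 sit below the wild-type sham arrays.

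In TLR4-/- microglia Ifit1 read 8.59, 8.48 and 7.64 on I/R arrays B, C and D, against 4.25, 4.45 and 4.71 on sham arrays A, B and D. The 3 sham values were all below the background stand-in, so its fold was measured against background signal. Ifit2 read 10.28, 10.14 and 9.69 after I/R, against 5.95, 5.72 and 5.90 after sham. Ifit3 read 9.75, 9.77 and 9.56 after I/R, against 5.20, 5.66 and 5.98 after sham. Both genes were above background on every array of the series. Ifit3b read 7.48, 7.32 and 7.44 after I/R, against 3.36, 4.33 and 2.89 after sham, where all 3 values were again below the stand-in. The I/R values of Ifit3b lay close together (7.41 ± 0.09, SD, n = 3), while its sham values were spread (3.53 ± 0.74, SD, n = 3).

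Ifit2, the member that limits neurotropic virus, had the highest change in TLR4-/- microglia, with a log2 difference of 4.18 (SE 0.29, 95% interval 3.57 to 4.78, limma adjusted p = 9.54e-08). Ifit3 rose by 4.09 (SE 0.28, 95% interval 3.49 to 4.68, limma adjusted p = 9.23e-08), a 17.0-fold change. Its paralogue Ifit3b rose by 3.88 (SE 0.44, 95% interval 2.94 to 4.82, limma adjusted p = 1.97e-05), which is 14.8-fold. Ifit1, the cap binder, rose by 3.77 (SE 0.31, 95% interval 3.12 to 4.41, limma adjusted p = 4.90e-07). All 4 members were called higher, where 5.04% of all 19938 genes were, and all 4 had groups that did not overlap, where 11.1% of all genes had I/R above sham. Counted from the highest change among all genes, Ifit2 was at rank 7, Ifit3 at 8, Ifit3b at 10 and Ifit1 at 13. Without both arrays that stood apart the changes were 4.35, 4.15, 3.87 and 4.07 for Ifit2, Ifit3, Ifit3b and Ifit1.

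In wild-type microglia Ifit1 read 6.80, 7.78, 8.09 and 8.11 on I/R arrays A to D, against 5.62, 5.41, 4.98 and 5.05 on sham arrays A to D. Array A was the lowest of the I/R arrays, and the sham values, unlike those of the TLR4-/- arrays, were above the background stand-in. Ifit2 read 8.72, 9.43, 9.83 and 10.11 after I/R, against 7.04, 6.88, 6.13 and 6.54 after sham. Ifit3 read 8.57, 9.35, 9.25 and 9.61 after I/R, against 7.43, 7.38, 6.95 and 6.35 after sham. I/R array A was the lowest and I/R array D the highest for both genes. Ifit3b read 5.65, 7.18, 7.18 and 7.92 after I/R, against 3.73, 4.63, 3.86 and 4.69 after sham, all 4 of the sham values being below background.

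Ifit2 again had the highest change of the members, 2.87 on the log2 scale (SE 0.25, 95% interval 2.35 to 3.40, limma adjusted p = 4.88e-07), or 7.33-fold. Ifit3b rose by 2.76 (SE 0.38, 95% interval 1.94 to 3.57, limma adjusted p = 0.000124), or 6.75-fold against a sham mean at background. Ifit1 rose by 2.43 (SE 0.26, 95% interval 1.87 to 2.99, limma adjusted p = 7.69e-06), or 5.38-fold. Ifit3 rose by 2.17 (SE 0.24, 95% interval 1.65 to 2.68, limma adjusted p = 9.85e-06), or 4.49-fold. All 4 members were called higher, where 6.15% of all genes were, and all 4 had I/R arrays above sham arrays without overlap, where 7.78% of all genes did. Their ranks from the highest change were 43 for Ifit2, 60 for Ifit3b, 103 for Ifit1 and 137 for Ifit3. Without both arrays that stood apart the changes were 2.70 for Ifit2, 2.63 for Ifit3b, 2.33 for Ifit1 and 2.14 for Ifit3.

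After sham surgery, TLR4-/- microglia had lower mean IFIT signals than wild-type microglia, but no member passed the test over all genes. Ifit3 averaged 5.61 ± 0.39 in TLR4-/- sham arrays (SD, n = 3) and 7.03 ± 0.50 in wild-type sham arrays (SD, n = 4), a difference of -1.42 (SE 0.26, 95% interval -1.97 to -0.86, limma adjusted p = 0.150). That was the second-lowest difference among all genes. Ifit1 averaged 4.47 ± 0.23 in TLR4-/- and 5.27 ± 0.30 in wild-type sham arrays, a difference of -0.79 (95% interval -1.40 to -0.19, limma adjusted p = 0.920), with the TLR4-/- mean at background. Ifit2 averaged 5.86 ± 0.12 in TLR4-/- and 6.65 ± 0.40 in wild-type sham arrays, a difference of -0.79 (95% interval -1.36 to -0.22, limma adjusted p = 0.920). For these 3 genes every TLR4-/- sham array lay below every wild-type sham array, where 1.85% of all genes did. Ifit3b averaged 3.53 ± 0.74 in TLR4-/- and 4.23 ± 0.50 in wild-type sham arrays, both at background, and the groups overlapped (difference -0.70, 95% interval -1.58 to 0.18, limma adjusted p = 0.940).

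The limma test called 0 of the 4 members between the sham groups at an adjusted p under 0.05, where 0.00502% of all genes were called. At an unadjusted p under 0.05 it gave 3 of 4, where 5.24% of all genes passed. Over all alternatives the difference lay between -1.64 and -1.21 for Ifit3 and between -0.91 and -0.67 for Ifit1. For Ifit2 it lay between -0.96 and -0.66, and for Ifit3b between -1.10 and -0.38. Ifit3 was not called in the main fit and was called in only 1 alternative. That was the fit without wild-type sham array D, which held its lowest wild-type sham value. There the difference was -1.64 and the limma adjusted p 0.0296. Over all alternatives the limma adjusted p of Ifit3 lay between 0.0296 and 0.804. The 1 gene called between the sham groups was Mid1, a microtubule-bound ubiquitin ligase, named here after its value was seen (difference -0.99, limma adjusted p = 0.0113).

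After I/R the mean IFIT signals were higher in TLR4-/- than in wild-type microglia, and again no member passed. Ifit1 averaged 8.24 ± 0.52 in TLR4-/- I/R arrays (SD, n = 3) and 7.69 ± 0.62 in wild-type I/R arrays (SD, n = 4), a difference of 0.54 (95% interval -0.06 to 1.15, limma adjusted p = 0.623). Ifit2 averaged 10.03 ± 0.31 in TLR4-/- and 9.52 ± 0.60 in wild-type I/R arrays, a difference of 0.52 (95% interval -0.05 to 1.08, limma adjusted p = 0.622). For both genes the arrays of the genotypes overlapped. Ifit3 averaged 9.70 ± 0.12 in TLR4-/- and 9.19 ± 0.45 in wild-type I/R arrays, a difference of 0.50 (95% interval -0.05 to 1.05, limma adjusted p = 0.620). Ifit3b averaged 7.41 ± 0.09 in TLR4-/- and 6.98 ± 0.96 in wild-type I/R arrays, a difference of 0.43 (95% interval -0.45 to 1.31, limma adjusted p = 0.771). These 2 genes overlapped as well. The limma test called 0 of 4 members (0.0201% of all genes were called), and 0 of 4 had an unadjusted p under 0.05, which 8.47% of all genes had. The intervals reach differences of more than 1 on the log2 scale for each member, so a difference of that size is not shown to be absent. All 4 differences were lowest without wild-type I/R array A, at 0.25 for Ifit1, 0.25 for Ifit2, 0.29 for Ifit3 and -0.02 for Ifit3b. Their highest values over all alternatives were 0.84 for Ifit1, 0.71 for Ifit2, 0.64 for Ifit3 and 0.74 for Ifit3b.

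The change after I/R was higher in TLR4-/- than in wild-type microglia for each member, but the difference between the changes passed for none. It was 1.92 for Ifit3 (SE 0.37, 95% interval 1.14 to 2.70, limma adjusted p = 0.382), the second-highest value among all genes. It was 1.34 for Ifit1 (SE 0.40, 95% interval 0.48 to 2.20), 1.30 for Ifit2 (SE 0.38, 95% interval 0.50 to 2.11) and 1.13 for Ifit3b (SE 0.59, 95% interval -0.12 to 2.37), each with a limma adjusted p of 1.00. The limma test called 0 of 4 members, and 0% of all genes were called. At an unadjusted p under 0.05 it gave 3 of 4, Ifit3b being the exception, where 3.82% of all genes passed. This difference uses the same arrays as the comparisons above and equals the genotype difference after I/R minus that after sham. For Ifit3 these were 0.50 and -1.42, for Ifit1 0.54 and -0.79, for Ifit2 0.52 and -0.79, and for Ifit3b 0.43 and -0.70. Without both arrays that stood apart the differences of changes were 2.01 for Ifit3, 1.74 for Ifit1, 1.65 for Ifit2 and 1.24 for Ifit3b, with limma adjusted p between 0.379 and 0.748.

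**Figure D3:**
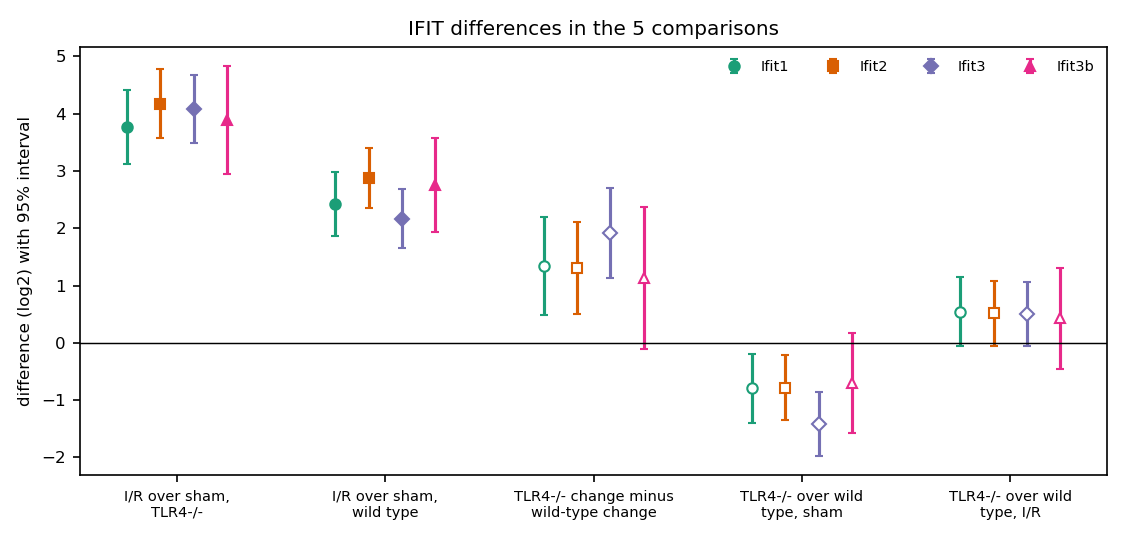
Log2 difference of each member in the comparisons made, with its 95% interval from limma. Filled symbols passed at an adjusted p under 0.05 and open symbols did not. The 8 changes after I/R are filled and lie between 2.17 and 4.18, while the genotype differences and the differences of changes are all open.

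Groups next to each other in the order of means compared as follows. TLR4-/- I/R and wild-type I/R, the highest groups, overlapped for every member. Wild-type I/R and wild-type sham did not overlap and passed the test. Wild-type sham and TLR4-/- sham did not overlap for Ifit1, Ifit2 and Ifit3, overlapped for Ifit3b, and passed for none.

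Other interferon-stimulated genes rose in the same comparisons. A list of 43 other type I interferon-stimulated genes had 40 called higher and 0 called lower after I/R in TLR4-/- microglia, with a median change of 1.45, where the median of all genes was -0.03. In wild-type microglia 38 rose and 0 fell, with a median of 1.21 against -0.06 over all genes. Among these genes and the members, 47 in all, Ifit2, Ifit3, Ifit3b and Ifit1 stood at ranks 3, 4, 5 and 7 from the highest change in TLR4-/- microglia. In wild-type microglia Ifit2 stood at 3, Ifit3b at 5, Ifit1 at 8 and Ifit3 at 11. The genes above all members in both genotypes were Cxcl10, a chemokine that draws T cells, with changes of 5.01 in TLR4-/- and 4.28 in wild type, and Ifi27l2a, with 4.25 in TLR4-/- and 3.31 in wild type. Zbp1, a sensor of nucleic acid in the Z form, rose by 3.66 in TLR4-/- and 2.84 in wild type.

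**Figure D4:**
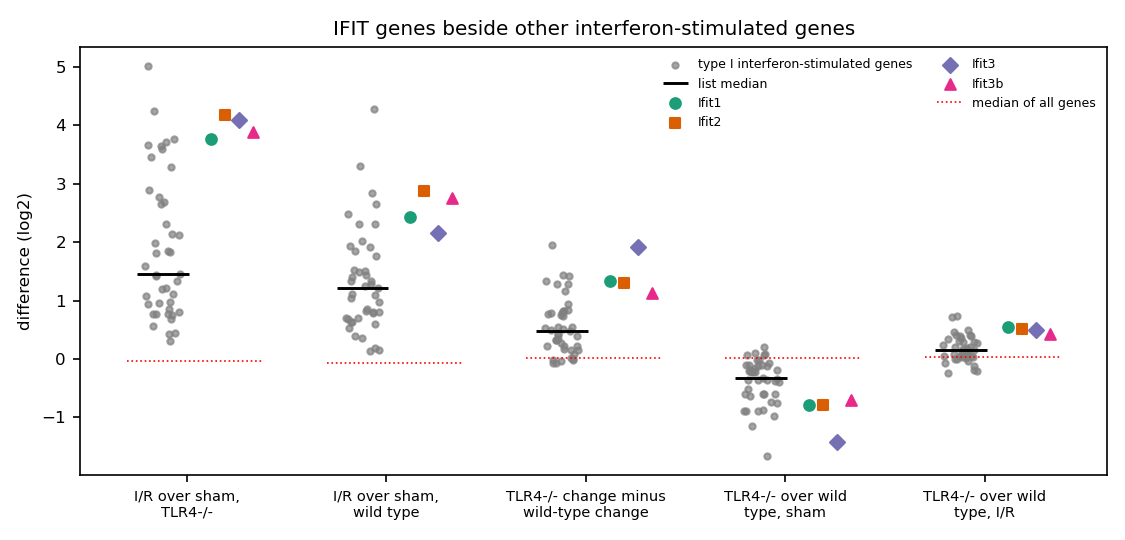
Log2 differences of 43 type I interferon-stimulated genes (grey points, black line at their median) and of the 4 IFIT genes (coloured symbols), with the median of all genes as a red dotted line. The members lie above the list median in both changes after I/R and below it between the sham groups.

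Between the sham groups the list had 0 genes called, with a median difference of -0.32 (0.01 over all genes). Of its 43 genes, 15 had all TLR4-/- sham arrays below all wild-type sham arrays (1.85% of all genes) and 1 had them above (3.65% of all genes). Rtp4, a chaperone of receptor transport, had the lowest value of the list and of all genes (-1.65, limma adjusted p = 0.0970), followed in the list by Ifitm3, which blocks virus entry (-1.15, limma adjusted p = 0.183), and by Usp18, which shuts down interferon receptor signalling (-0.97, limma adjusted p = 0.734). Of the members, Ifit3 lay between Rtp4 and Ifitm3. The mean signal of the list was 6.42 to 6.54 on TLR4-/- sham arrays and 6.75 to 6.92 on wild-type sham arrays. For the difference of changes the list had 0 called and a median of 0.48 (0.02 over all genes), with Rtp4 at 1.95, Ifitm3 at 1.44 and Usp18 at 1.43. After I/R the genotype difference had a median of 0.15 (0.03 over all genes), again with 0 called. Without wild-type sham array C, the list had 2 genes called between the sham groups and 1 for the difference of changes, and without wild-type I/R array A it had 1 called between the sham groups. The share of all genes called in these fits was not counted, so these list counts cannot be set against it.

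Upstream of the members, the interferons themselves gave no calls: 0 of 9 measured ligand genes passed after I/R in either genotype. Only 3 of the 9, Ifna5, Ifnz and Ifnl2, had a mean signal above the background stand-in, and Ifna1 and Ifnl3 were not analysed here. Ifnb1, the interferon-beta gene, had a mean signal of 3.24, inside the background, and changes of 0.73 in TLR4-/- (limma adjusted p = 0.267) and 0.53 in wild type (limma adjusted p = 0.335). Of 15 receptor and signalling genes, 2 rose and 1 fell in each genotype, where 5.04% of all genes rose and 3.13% fell in TLR4-/- and 6.15% rose and 3.63% fell in wild type. Both risers are also in the interferon-stimulated list. The risers were Usp18, with 3.45 in TLR4-/- and 2.02 in wild type, and Stat2, a part of the complex that binds the response element, with 1.45 in TLR4-/- and 1.05 in wild type. Ifngr1, a chain of the interferon-gamma receptor, fell by 0.56 in TLR4-/- and by 0.47 in wild type on the log2 scale. Ifnar1, a chain of the type I receptor, had values of -0.0009 in TLR4-/- and 0.03 in wild type and did not pass.

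Of 14 genes that sense RNA or relay that signal, 7 rose in TLR4-/- (5.04% of all genes) and 8 in wild-type microglia (6.15% of all genes), and 0 fell. Irf7, the amplifier of interferon production, rose by 2.69 in TLR4-/- and 1.92 in wild type. Dhx58, a RIG-I-like sensor, rose by 2.13 in TLR4-/- and 1.33 in wild type, and Eif2ak2, the kinase PKR, by 1.59 in TLR4-/- and 1.26 in wild type. All 7 risers in TLR4-/- and 7 of the 8 in wild type, Ikbke being the exception, are also in the interferon-stimulated list, so they are not separate from it. Irf3 did not pass in TLR4-/- (-0.29) or in wild type (-0.43). Of the enzymes listed that methylate caps or transcripts, 4 were measured, and Cmtr1, which writes the ribose mark that Ifit1 reads, was not analysed here. Cmtr2 (-0.11 in TLR4-/- and -0.30 in wild type), Rnmt (0.03 in TLR4-/- and 0.05 in wild type) and Pcif1 (-0.28 in TLR4-/- and -0.24 in wild type) did not pass. Mettl3, which writes internal methyladenosine and no cap mark, fell by 0.39 in TLR4-/- and by 0.35 in wild type on the log2 scale. Of 11 measured subunits of eIF3, the factor IFIT proteins bind, 1 rose in TLR4-/- (Eif3e, 0.43) and 2 in wild type (Eif3m, 0.57, and Eif3a, 0.48). Of all genes, 5.04% rose in TLR4-/- and 6.15% in wild type.

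Along the chromosome, the members' neighbours did not move as a block. Of 8 measured genes around the cluster, 3 rose in TLR4-/- (5.04% of all genes) and 2 in wild-type microglia (6.15% of all genes). Ch25h, which makes the antiviral sterol 25-hydroxycholesterol and lies before Ifit2, rose by 4.42 in TLR4-/- and 4.78 in wild type, against sham values of 3.28 to 4.34 in TLR4-/- and 3.34 to 3.73 in wild type. Kif20b, a kinesin of dividing cells, rose by 1.74 in TLR4-/- and 2.79 in wild type, against sham means of 4.17 in TLR4-/- and 4.08 in wild type. Both genes were below the background stand-in on every sham array, so these changes were measured against background signal. Lipa, the lysosomal lipase gene between Ch25h and Ifit2, did not pass, with 0.19 in TLR4-/- and 0.20 in wild type. Ifit1bl2, a gene of the family on the minus strand, has a promoter window whose annotated start is 146 bases from that of Ifit1 and which shares 245 bases with the Ifit1 window, both response elements included. Its row lay between 2.36 and 3.22, below the background stand-in on all 14 arrays, and read 0.60 higher after I/R in TLR4-/- (SE 0.13, limma adjusted p = 0.00762) and 0.18 higher in wild type, where it did not pass. Ifit1bl1 was not analysed here.

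The members also varied between arrays of a group. Wild-type I/R array A was below its group mean for all 4 genes, by a deviation of -0.90 for Ifit1, -0.80 for Ifit2, -0.63 for Ifit3 and -1.33 for Ifit3b. The mean of the interferon-stimulated list on that array deviated by -0.50, and the monocyte marker mean by -0.14. Wild-type I/R array D was above its group mean for all 4, with deviations between 0.41 and 0.94. All 4 members lay on one side of their group mean on 6 of the 14 arrays, and the mean of the members and that of the list lay on the same side on 9 of 14. Ifit3b deviated from the other members on several sham arrays, where its signal was at background.

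**Figure D5:**
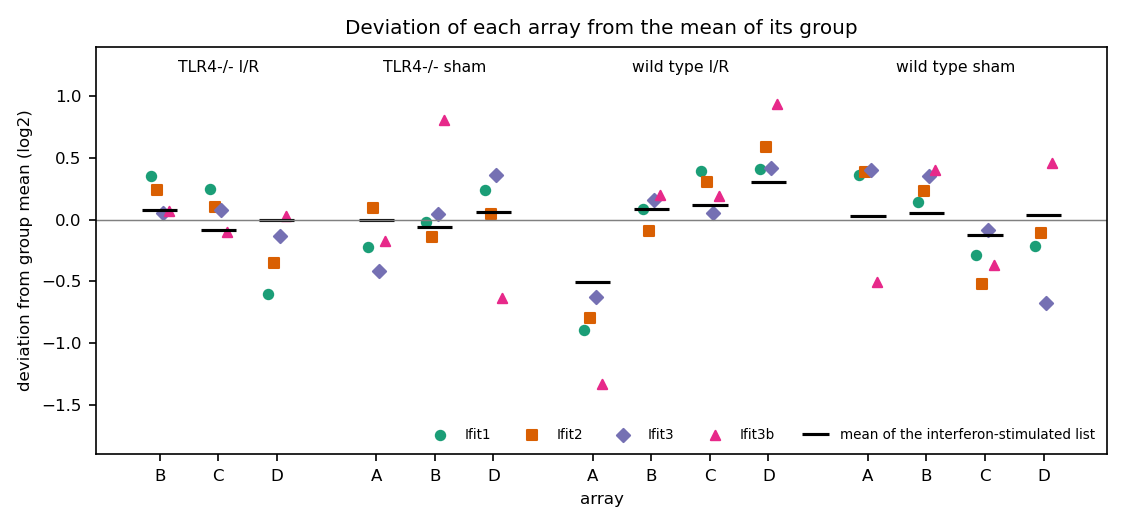
Deviation of each member from the mean of its group on each of the 14 arrays, in log2 units, with the deviation of the interferon-stimulated list mean as a black bar. Among the wild-type I/R arrays, A is lowest for all 4 members, from -0.63 to -1.33.

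The genes most like the members over the 14 arrays, by Pearson's r with the mean of the members' standardised values, were Oasl2 (0.993), Usp18 (0.992), Slfn5 (0.989), Oas1a (0.988), Rsad2 (0.983) and Xaf1 (0.982). All 6 belong to the interferon-stimulated list, whose median r was 0.940, and these values mostly reflect the gap between I/R and sham arrays. With each group's mean subtracted, the highest values were those of Oas1a (0.916), Iigp1 (0.905), Casp4 (0.903), Olfr803 (0.901), Fpr-rs3 (0.889) and Olfr806 (0.886), and the median of the list was 0.571. Olfr803, Fpr-rs3 and Olfr806 had mean signals of 2.11, 4.62 and 1.72, inside the background. Oas1a makes the second messenger that activates RNase L, and Iigp1 is an interferon-inducible GTPase. The arrays share their RMA fit, and no p is given.

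Markers of other cells moved in the same comparisons. Of 8 monocyte markers measured, 4 rose in TLR4-/- (5.04% of all genes did) and 5 in wild-type microglia (6.15% of all genes did), and their mean signal was 6.08 to 6.32 on TLR4-/- I/R arrays, 4.78 to 5.01 on TLR4-/- sham arrays, 6.21 to 6.66 on wild-type I/R arrays and 4.91 to 5.14 on wild-type sham arrays. Vim, which activated microglia also express, rose by 2.91 in TLR4-/- and 3.20 in wild type. Plac8 rose by 3.52 in TLR4-/- and 2.59 in wild type. Ccr2, the receptor that defines inflammatory monocytes, did not pass, with -0.22 in TLR4-/- and 0.41 in wild type. Of the 14 microglia markers, 6 fell in TLR4-/- (3.13% of all genes did) and 8 in wild type (3.63% of all genes did), and their mean signal was 10.88 to 11.01 on TLR4-/- I/R arrays, 11.22 to 11.32 on TLR4-/- sham arrays, 10.87 to 11.07 on wild-type I/R arrays and 11.24 to 11.30 on wild-type sham arrays. Of 8 neutrophil markers, 0 were called in wild type and 1, Csf3r, fell in TLR4-/- microglia (by 0.55 on the log2 scale, limma adjusted p = 0.0472). Their mean signal was 4.22 to 4.37 on TLR4-/- I/R arrays, 4.28 to 4.49 on TLR4-/- sham arrays, 4.04 to 4.24 on wild-type I/R arrays A, B and D but 5.19 on wild-type I/R array C, and 4.23 to 4.53 on wild-type sham arrays. Ly6g, Camp, Retnlg and Mmp8 were below the background stand-in on all 14 arrays. Of 6 markers of border macrophages, which live at the surfaces and vessels of the brain, 0 were called in any comparison. All 6 had lower means in TLR4-/- than in wild-type arrays, with a median difference of -0.34 after sham surgery and -0.52 after I/R. Their mean signal was 7.05 to 7.73 on TLR4-/- I/R arrays, 6.93 to 7.66 on TLR4-/- sham arrays, 7.53 to 8.23 on wild-type I/R arrays and 7.69 to 7.88 on wild-type sham arrays. The part of other cells in the IFIT changes was not tested.

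The rows of Ifit3 and Ifit3b come from paralogues with nearly identical promoters, and probes that match both could carry signal between them. The probe sequences were not used here, so the Ifit3b values are uncertain in that respect.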

How the data were processed

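Gene expression had been measured in 14 samples of sorted cortical microglia, 1 array each. The deposited values are log2 signals, and per the submitters' processing notes the authors made them with RMA in oligo, which removes background, equalises the distributions of the arrays and condenses the probes of each row into 1 value. The version is not given in the sources used here. Such steps compress low signals, so folds against groups at background are uncertain.

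Of 35556 rows, 21789 carried 1 gene symbol in the platform annotation, 1621 several and 12146 none. The row with the highest mean stood for each of 19938 genes. Symbols are those of the platform annotation, and list genes under older names were matched through RefSeq (GRCm38.p6) gene IDs and synonyms. Of the rows with 1 symbol, 21698 carried an ID found there. No further scaling was applied. Array medians over these genes lay between 5.27 and 5.36. Arrays have no read depth, and precision depends on how many there are and on the spread among them.

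The 4 group means were fitted over all arrays at once with limma 3.58.1 (R 4.3.3, lmFit and eBayes), and p-values were adjusted by Benjamini-Hochberg over all genes, with calls at an adjusted p under 0.05. Intervals are 95% intervals from that model. The procedure was tested on simulated data. Promoters were searched with Python 3.11.15 and aligned with biopython 1.88. The members, gene lists and tests were chosen with earlier results of these data known. Beside the members, genes were named from these: per list and comparison, up to 4 with the smallest p, all genes of lists of 6 or fewer, defining markers of microglia and monocytes, and the 6 most similar genes by each measure. Not every gene this rule allows is described. Genes outside this rule, named after their values were seen, are Mid1, Ifnar1, Irf3 and Ikbke. The neutrophil markers named are inside the rule but were also added after their values were seen.

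Alternatives were the arrays entered, eBayes settings, array weights, a filter on dim genes, scaling, the row chosen for a gene, a replicate block by title letter, and leaving out each array. The letters were shared by groups, and the main fit did not pair the arrays by them.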

Additional observations from a re-analysis of the deposited data

Results flagged for a closer look

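The mean signal of the 43 interferon-stimulated genes was 6.75 on wild-type sham array C, while the other wild-type sham arrays lay between 6.89 and 6.92. The gap was larger than Dixon's test allows for 4 samples. The same test was run on 14 sets of 4 wild-type arrays, and chance gives such a gap in about 1 in 20. The 4 IFIT genes were below their group mean on this array too, with deviations from -0.08 for Ifit3 to -0.52 for Ifit2.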

How the results depend on the processing

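The 4 members were called higher after I/R in both genotypes under every alternative run, with limma adjusted p of at most 0.00053 in TLR4-/- and 0.0018 in wild type. Changes ranged from 3.57 for Ifit3b to 4.35 for Ifit2 in TLR4-/- and from 1.94 for Ifit3 to 3.20 for Ifit3b in wild type. The difference of changes was called for 0 members throughout (limma adjusted p 0.127 to 1.00). Leaving out 1 array at a time, the count of members called between the sham groups ranged from 0 to 1 (Ifit3 at -1.64, without wild-type sham array D). The interferon-stimulated list ranged from 0 to 2 called between the sham groups and from 0 to 1 for the difference of changes. With wild-type sham C and TLR4-/- I/R D both left out, a setting chosen after seeing the data, it had 2 called between the sham groups. Calls over all genes were not counted in these alternatives. The Ifit3b difference between genotypes after I/R turned to -0.0163 without wild-type I/R array A (limma adjusted p = 0.991), and ranged from there to 0.7415, without wild-type I/R array D, with 1 array left out. The causes were not tested, beyond the fewer arrays. With the replicate block the members called stayed at 4 in each I/R comparison and 0 elsewhere, and Ifit1 rose by 3.63 in TLR4-/-. The labels do not say what the letters stand for. With group means subtracted, 3 of 18 same-letter pairs of arrays correlated above 0.1 (r from -0.10 to 0.28, mean 0.045). Of 55 pairs with different letters, 6 did (r from -0.26 to 0.24, mean -0.015). Of the 14 arrays, 7 correlated best with their own letter. A pairing or batch by letter was not tested beyond this. The block changed no call. Fitting only the compared groups was not run for the difference of changes, which uses all 4.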
